A study of Mus musculus with 15 samples.

Results

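The 9 genes described here encode thrombospondins (Thbs1, Thbs2, Thbs3 and Thbs4) and CCN proteins (Cyr61, Ctgf, Nov, Wisp1 and Wisp2, now named Ccn1, Ccn2, Ccn3, Ccn4 and Ccn5). They were chosen by gene name, as the probes on the array that carry these names, with earlier results of these data known, among them the change of several of the genes between cells with and without a hairpin against Siva. The array carries 36282 gene names, of which the 9 genes have 11 probes, with 2 each for Thbs3 and Wisp1. Of the 9 genes, 6 passed the filter on dim probes, among 22908 genes tested.

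RNA came from LSZ2 and LSZ4, a pair of lines derived from mouse lung cancer of the non-small cell kind, infected with virus carrying a short hairpin RNA. The series concerns the role in tumour growth of Siva, a target gene of p53. Hairpins were shSiva1 and shSiva2 against Siva, in the vector pLKO TRC2.0, and the controls shGFP, in pLKO.1, and shLacZ, in LL37, against genes that mouse cells lack. There were 7 control and 8 shSiva arrays, 2 for every combination of line and hairpin but LSZ2 shGFP, which had 1. Selection with puromycin lasted 3 days for the shGFP and shSiva cells and was left out for shLacZ, and harvest was 2 days after plating. The labels give no genotype of the lines and do not say that replicate arrays stand for different cultures, so a p-value here reflects the spread between arrays, which may be technical.

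Thrombospondins and CCN proteins are matricellular: cells secrete them into the matrix, where they act on receptors and growth factors more than as structural parts. Thrombospondins bind calcium, integrins, CD47 and other receptors, and Thbs1 is known as an inhibitor of blood vessel growth, an activator of latent TGF-beta and a transcript that p53 can raise. CCN proteins bind integrins and heparan sulphate; Cyr61 and Ctgf are widely used readouts of YAP and TAZ, the effectors of the Hippo pathway, and Wisp1 and Wisp2 were named for their induction by Wnt1.

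The probes are shown because every value below is the brightness of one of them, each a 60-base sequence of which the first 30 bases are printed, 5′ to 3′ on the strand of the transcript. Capitals mark bases that the 2 Thbs3 probes share; the other probes have none.
Thbs1: gcctgtagagttagtatttctggtttttat
Thbs3, the brighter probe: ggggttgggagacttTCAAGGGGTATTATT
Thbs3, the other probe: TCAAGGGGTATTATTACTCAGGTTCTAACC
Cyr61: aagattagttgggccaagtgaaagccctgc
Ctgf: gtcaaatccctgttggtgaacaaatggcct
Wisp1, the brighter probe: cattcctcatttttctcatgatctgtgtag
Wisp1, the other probe: ctaacgatatctttgctgacttggaatctt
Wisp2: gtatttgtaaaaatacacatctcttaaatg
On the mm9 build, per the file headers, the Thbs1 probe lies on the plus strand at chr2:117952585-117952644 and the Wisp2 probe on the same strand and chromosome at chr2:163658717-163658776. The Cyr61 probe lies on the minus strand at chr3:145310187-145310246. The Ctgf probe is on the plus strand at chr10:24318281-24318340. The Thbs3 probes, chr3:89030667-89030726 and chr3:89030682-89030741 on the plus strand, overlap by 45 bases and are not independent measurements. The Wisp1 probes, chr15:66754637-66754696 and chr15:66750958-66751017 on the plus strand, start 3679 bases apart and share none. No gene annotation of mm9 was used here, so exon and UTR are not given.

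Across the 15 arrays the 75th percentile of the processed signal ran from 428 to 1029 intensity units, 49.0% to 60.6% of spots were well above background and 0 were saturated. Precision is limited by how many arrays there were. The 7 control arrays shared 1 slide and the 8 shSiva arrays a different one; the slide, and likewise the vector, cannot be told apart from the Siva hairpins. Within a slide each row of arrays held 1 hairpin, so row and hairpin cannot be told apart either. On both slides LSZ2 arrays lay in columns 1 and 2 and LSZ4 arrays in columns 3 and 4, so column and line cannot be told apart. Siva1, the targeted transcript, had log2 values of 5.27 to 6.49 in control arrays, 2.30 to 3.15 with shSiva1 and 3.45 to 4.09 with shSiva2. All 8 epithelial markers were well above background on each shSiva array and the keratins Krt8, Krt18 and Krt19 on every array, and of 8 lung markers Foxa2 was on every array, Sftpb on 7 control and 4 shSiva arrays, Napsa, Scgb1a1 and Hopx on fewer, and Nkx2-1, Sftpc and Sftpa1 on none. Of 10 fibroblast markers, Col1a2 was well above background on every array, Col3a1 on 2 control and 6 shSiva arrays, Col1a1 on 1 and 4, and Dcn, Lum, Pdgfra, Pdgfrb, Thy1, Fap and Postn on 0. Of 8 endothelial and blood markers, Pecam1, Kdr, Itgam and Hba-a1 were on every array and Cdh5 and Tek on none. Ptprc was on 3 control and 5 shSiva arrays, and Cd68 on 0 and 3.

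Levels are log2 signal less the 75th percentile of the array, so that 0 is the signal of that percentile. Levels of different genes come from different probes and were not compared with each other.

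With a Siva hairpin, Thbs1 and Cyr61 transcripts lay above control and Ctgf and Thbs3 lay close to it. Wisp1 and Wisp2 lay above control in every shSiva1 array, but not in every shSiva2 array. Thbs2, Thbs4 and Nov were at background in nearly every array. Thbs1 differed by 4.01 on the log2 scale and Cyr61 by 1.65, each with no overlap between 8 shSiva and 7 control arrays. Wisp1 and Wisp2 were not well above background in any control array, and their level depended on which Siva hairpin was used. With shSiva2, Wisp1 was well above background on 2 of 4 arrays and Wisp2 on 0 of 4, and both overlapped control. This contrast was used in choosing the genes, so its values for them are given as a description with no test. Of the 6 genes, 4 were at least 2-fold higher by the fit and 0 at least 2-fold lower, beside 3.85% of the 22908 genes at least 2-fold higher; the median of the 6 was 2.75, and that of all genes was -0.12. Wisp1 and Wisp2 passed the filter only through shSiva arrays, and their fitted differences rest on control values at background. These counts and the median of the 6 are therefore not evidence about the families. Over all genes, 983 (4.29%) were called higher and 1302 (5.68%) lower at an adjusted p under 0.05, a split that was 465 and 366 with normexp background correction and 1577 and 1586 with quantile normalization.

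**Figure D1:**
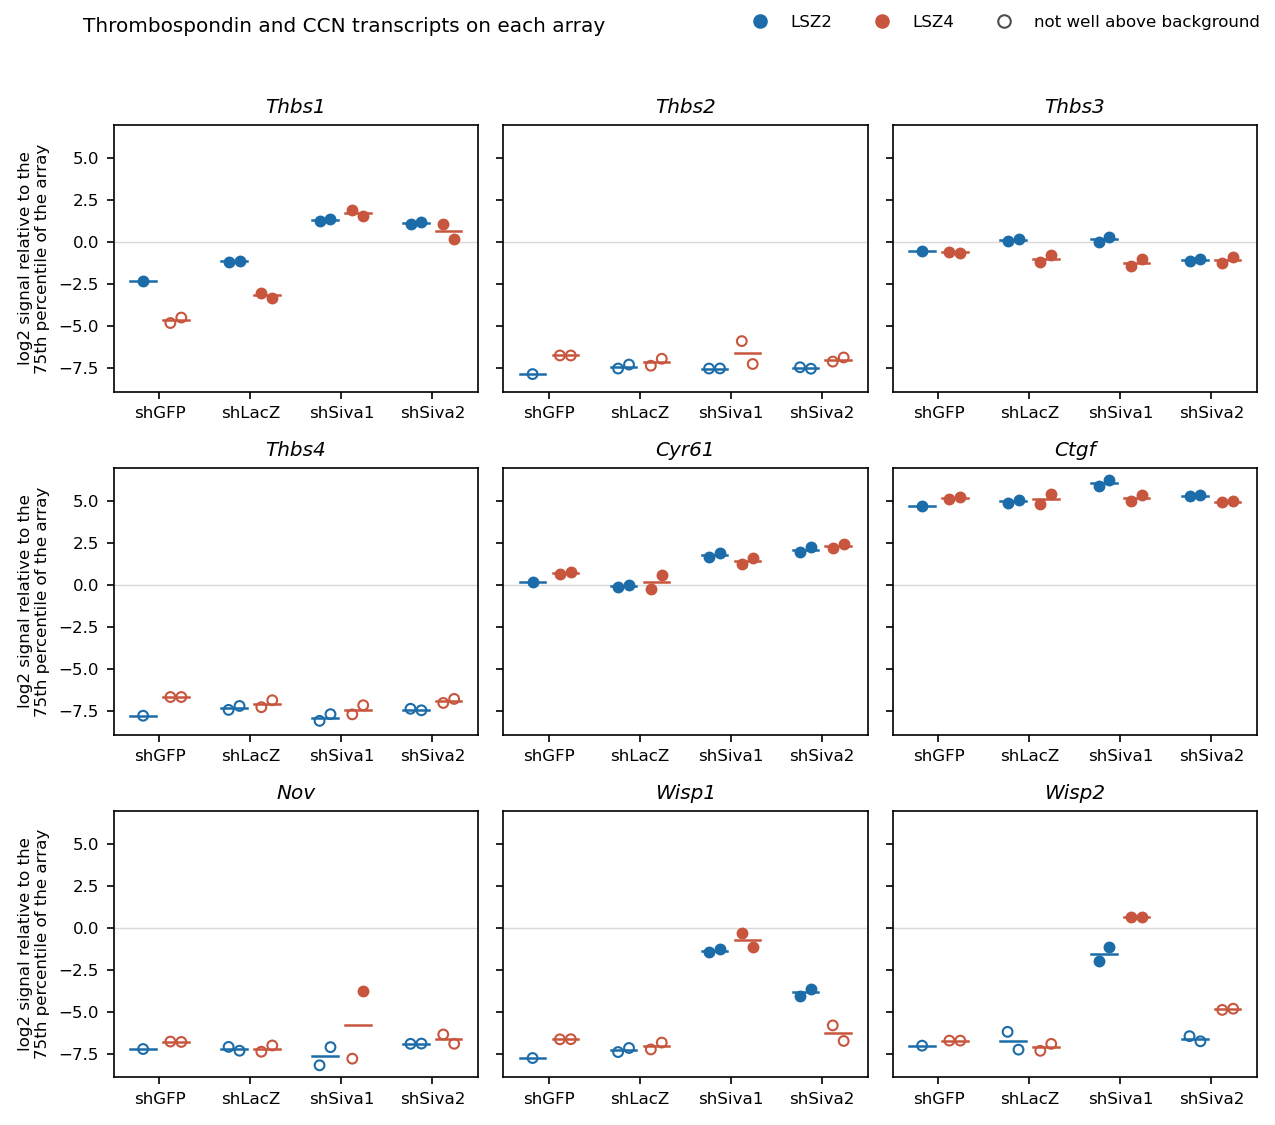
Each point is 1 array: the log2 signal of a gene relative to the 75th percentile of that array (vertical axis) by hairpin (horizontal axis) in LSZ2 (blue) and LSZ4 (red), with group means as lines and open points where the probe was not well above background. Thbs1 and Cyr61 are higher in all 8 shSiva arrays than in all 7 control arrays, Wisp2 is filled only in the 4 shSiva1 arrays, and Thbs2 and Thbs4 are open throughout.

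Among the thrombospondins, Thbs1 was the member with the wide range. In control cells its log2 level was -2.34 in the LSZ2 shGFP array, -1.21 and -1.11 in LSZ2 with shLacZ, -3.05 and -3.32 in LSZ4 with shLacZ, and -4.83 and -4.51 in LSZ4 with shGFP. With shSiva1 the levels were 1.22 and 1.35 in LSZ2 and 1.88 and 1.52 in LSZ4, and with shSiva2 they were 1.04 and 1.18 in LSZ2 and 1.07 and 0.18 in LSZ4. The lowest shSiva array thus stood above the highest control array, and the spread was wide in control cells and narrow in shSiva cells. The LSZ4 shGFP values were the only ones of Thbs1 not well above background. Means were -2.91 ± 1.46 (SD, n = 7) without and 1.18 ± 0.49 (SD, n = 8) with a Siva hairpin, a fitted 16.1-fold difference (log2 SE 0.42). It was smaller with normexp background correction, at 8.01-fold (log2 SE 0.24). On the log2 scale it was 3.36 against shLacZ, where all arrays measured it, and 3.45 without both LSZ4 shGFP arrays. Against shGFP it was 4.91, a value that rests on 2 of 3 control arrays at background and shares the shSiva arrays with the one against shLacZ. In order of group means, LSZ4 shSiva1, LSZ2 shSiva1, LSZ2 shSiva2 and LSZ4 shSiva2 came first, with overlap only between the last pair, followed without overlap by LSZ2 shLacZ, LSZ2 shGFP, LSZ4 shLacZ and LSZ4 shGFP.

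Thbs3, which unlike Thbs1 belongs to the thrombospondins that assemble as pentamers, was well above background on all 15 arrays. Its log2 level in control cells was -0.52 in the LSZ2 shGFP array, 0.06 and 0.16 in LSZ2 with shLacZ, -0.59 and -0.66 in LSZ4 with shGFP, and -1.18 and -0.80 in LSZ4 with shLacZ. In shSiva cells it was 0.02 and 0.28 in LSZ2 with shSiva1, -1.12 and -1.03 in LSZ2 with shSiva2, -1.46 and -1.00 in LSZ4 with shSiva1, and -1.23 and -0.90 in LSZ4 with shSiva2. Control and shSiva arrays overlapped, and the 4 arrays above 0 were all from LSZ2. The pooled difference was -0.35 (SE 0.21), and -0.39 (SE 0.21) with the overlapping probe.

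Thbs2, the close relative of Thbs1, and Thbs4, another pentameric thrombospondin, were well above background on 0 of 15 arrays. Thbs2 values ran from -7.87 to -6.76 in control and from -7.55 to -5.91 in shSiva arrays, and Thbs4 values from -7.80 to -6.68 and from -8.10 to -6.80. No fold is given for either, because neither was measured in control or in shSiva cells.

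Among the CCN genes, Cyr61 was measured on every array. Its log2 level in control cells was 0.17 in the LSZ2 shGFP array, 0.64 and 0.78 in LSZ4 with shGFP, -0.13 and -0.03 in LSZ2 with shLacZ, and -0.23 and 0.58 in LSZ4 with shLacZ. With shSiva1 it was 1.63 and 1.87 in LSZ2 and 1.24 and 1.59 in LSZ4, and with shSiva2 it was 1.93 and 2.25 in LSZ2 and 2.22 and 2.40 in LSZ4. The groups did not overlap between the arms, and the highest values were those of shSiva2. Means were 0.25 ± 0.41 (SD, n = 7) without and 1.89 ± 0.39 (SD, n = 8) with a Siva hairpin, a fitted 3.14-fold difference (log2 SE 0.20). It was 1.39 against shGFP and 1.85 against shLacZ on the log2 scale, and 1.92 within LSZ2 and 1.43 within LSZ4.

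Ctgf, the other CCN gene used as a readout of YAP and TAZ, was also measured on every array. Control values were 4.70 in the LSZ2 shGFP array, 5.11 and 5.25 in LSZ4 with shGFP, 4.86 and 5.06 in LSZ2 with shLacZ, and 4.79 and 5.43 in LSZ4 with shLacZ. With shSiva1 the values were 5.85 and 6.21 in LSZ2 and 4.98 and 5.33 in LSZ4, and with shSiva2 they were 5.26 and 5.36 in LSZ2 and 4.94 and 4.97 in LSZ4. The 2 LSZ2 shSiva1 arrays were the highest of all, and the other shSiva arrays lay within the range of the controls of both lines together. Within LSZ2 all 4 shSiva arrays stood above all 3 control arrays, while within LSZ4 the arms overlapped. The pooled difference was 0.32 on the log2 scale (SE 0.19), with 0.80 (SE 0.24) in LSZ2 and -0.09 (SE 0.22) in LSZ4.

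Wisp1 was well above background on 6 of 15 arrays, all with a Siva hairpin. With shSiva1 its log2 level was -1.46 and -1.27 in LSZ2 and -0.32 and -1.18 in LSZ4. With shSiva2 it was -4.06 and -3.64 in LSZ2, while the LSZ4 values of -5.82 and -6.75 were at background, as were all 7 control values, from -7.76 to -6.64. The 4 shSiva1 arrays were therefore the highest, the LSZ2 shSiva2 arrays were between, and the rest could not be told from background. Against control, Wisp1 was at least 16.3-fold higher with shSiva1 and at least 1.01-fold higher with shSiva2, where 2 of 4 arrays measured it. Such a bound divides the mean of the bright group by that of the dim group after each dim array was raised, where lower, to the weakest signal that counted as well above background on it. The other Wisp1 probe was at least 9.72-fold higher with shSiva1. With shSiva2 that probe was well above background on 1 of 4 arrays, and no fold is given for it. For both probes the shSiva2 and control arrays overlapped.

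Wisp2, a CCN protein that lacks the C-terminal cystine knot of its relatives, was well above background only in the 4 shSiva1 arrays. Its log2 level was -2.01 and -1.17 in LSZ2 and 0.61 and 0.62 in LSZ4 with shSiva1. With shSiva2 the values were -6.46 and -6.77 in LSZ2 and -4.90 and -4.83 in LSZ4, and in control arrays they ran from -7.34 to -6.21, none of them well above background. Wisp2 was at least 24.2-fold higher with shSiva1 than in control cells, and no fold is given for shSiva2 against control, since neither group measured it. Nov was well above background on 1 of 15 arrays, LSZ4 with shSiva1, replicate 2, at -3.76, and its other values ran from -8.20 to -6.36.

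The comparison of shSiva2 with shSiva1 was not used in choosing the genes, and both groups lay on 1 slide. It separated Wisp1 and Wisp2, which were high with shSiva1, from Cyr61, which was slightly higher with shSiva2, and from Thbs1, Thbs3 and Ctgf, which did not pass. The background was wide, with 21.0% of all genes called (2541 higher and 2280 lower, median 0.14). Of the 6 genes, 1 was higher and 2 were lower; Wisp2 passed the filter through the shSiva1 arrays alone and Wisp1 through these and 2 others, so the count is not read against the background. Siva1 itself was 0.84 higher on the log2 scale with shSiva2 than with shSiva1 (limma adjusted p = 0.0390), and the 75th percentile signal was 586 to 964 units with shSiva1 and 499 to 901 with shSiva2; their part in the differences was not tested.

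Wisp2 was at least 24.3-fold lower with shSiva2 than with shSiva1, with all 4 arrays lower. As it passed the filter only through the group where it was high, its p is given from the fit with no filter on dim probes (limma adjusted p = 6.58e-06). The bound was 14.0-fold in LSZ2 and 42.3-fold in LSZ4. Wisp1 differed by -4.01 on the log2 scale (SE 0.55, limma adjusted p = 0.000125, all 4 arrays lower), with 2 of 4 shSiva2 arrays at background, and in LSZ4 at least 16.6-fold lower. The other Wisp1 probe, which shares no base with it, was lower by a fitted 3.60 (SE 0.44), with 1 of 4 shSiva2 arrays well above background. As it passed the filter through the 4 shSiva1 arrays and that array, its p is not given. With no filter on dim probes the limma adjusted p of Wisp1 was 0.000314.

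Cyr61 was 0.62 higher with shSiva2 (SE 0.21, limma adjusted p = 0.0482, all 4 arrays higher than all 4 of shSiva1). This call was lost in 11 of 15 fits that left out 1 array, with adjusted p up to 0.144 without LSZ4 shSiva1 replicate 1, and with no filter on dim probes, where it was 0.0801. Thbs1 differed by -0.62 (SE 0.44, limma adjusted p = 0.351) although its 4 shSiva2 arrays lay below the 4 shSiva1 arrays. Ctgf differed by -0.46 (SE 0.24, limma adjusted p = 0.200) and Thbs3 by -0.53 (SE 0.27, limma adjusted p = 0.184), both with overlapping arrays. With the 8 groups as separate means, Thbs1 and Thbs3 passed as well, and with quantile normalization Ctgf passed, at -0.69 (limma adjusted p = 0.00617).

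**Figure D2:**
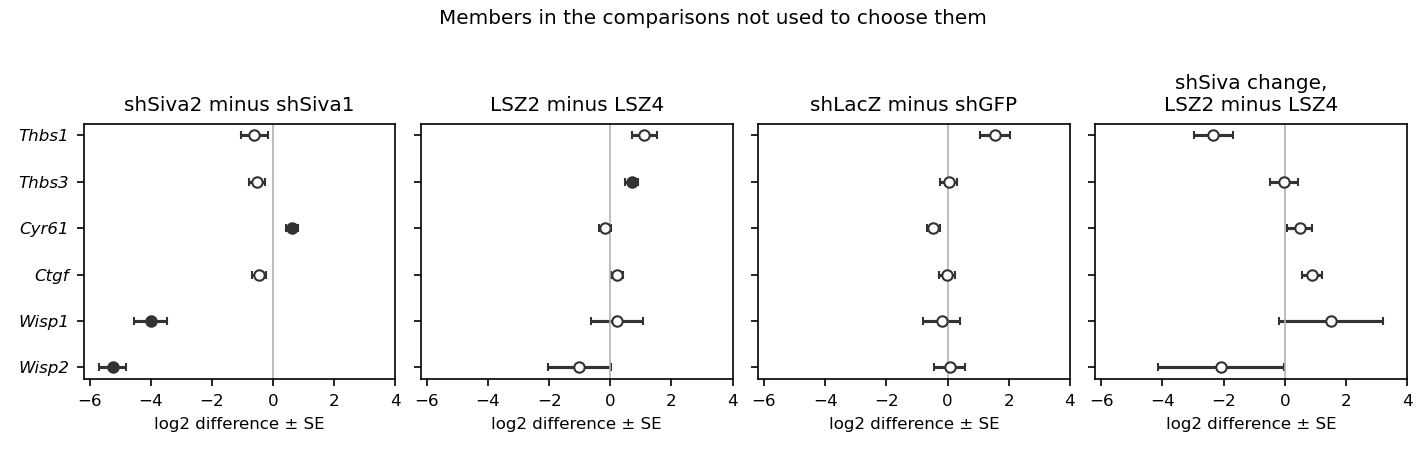
Log2 differences with standard errors (horizontal axis) of the 6 genes that passed the filter, in the 4 comparisons not used to choose them; filled points have an adjusted p under 0.05. Wisp1 and Wisp2 lie far below 0 for shSiva2 minus shSiva1, at fitted values of -4.01 and -5.25 that include arrays at background, and Thbs3 is the one filled point between the lines.

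The control hairpins, which differ in vector and selection, showed how far the genes moved without a Siva hairpin. Thbs1 was 1.55 higher with shLacZ than with shGFP on the log2 scale (SE 0.48, limma unadjusted p = 0.00636, adjusted p = 0.352), with 1 of 3 shGFP arrays well above background against 4 of 4. Cyr61 differed by -0.46 (SE 0.22, limma adjusted p = 0.352), and its groups overlapped. With limma 0 of the 6 passed, 1 of them at an unadjusted p under 0.05, beside 0.00437% of all genes passing (1 gene) and 2321 genes at an unadjusted p under 0.05.

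Between the lines, Thbs3 was higher in LSZ2 than in LSZ4 by 0.70 on the log2 scale (SE 0.21, limma adjusted p = 0.0377), beside 21.7% of all genes called (median -0.23; 1632 higher and 3336 lower, or 1970 and 2362 with quantile normalization). The difference was 0.71 within the control slide and 0.69 within the shSiva slide, and 0.71 with the overlapping probe (limma adjusted p = 0.0336). These averages hid a dependence on the hairpin. Means in LSZ2 and LSZ4 were 0.11 and -0.99 with shLacZ, and 0.15 and -1.23 with shSiva1. With shGFP they were -0.52 (1 array) and -0.62, and with shSiva2 -1.07 and -1.07, so the lines were close under these hairpins. The call was lost in 10 of 15 fits that left out 1 array, where the difference kept its direction and ran from 0.57 to 0.81. The 75th percentile signal was 791 to 1029 units in LSZ2 and 428 to 964 in LSZ4, and its part in the difference was not tested. Thbs1 was 1.12 higher in LSZ2 (SE 0.42, limma adjusted p = 0.0618), 2.37 within control arrays and 0.04 within shSiva arrays. Wisp1, Wisp2, Cyr61 and Ctgf had adjusted p from 0.395 to 0.847, although with quantile normalization Ctgf passed, at 0.58 (limma adjusted p = 0.0409). With the 8 groups as separate means, the difference was 1.11 for Thbs1 and -0.97 for Wisp2. Wisp2 was well above background on 2 of 7 LSZ2 and 2 of 8 LSZ4 arrays, so its difference rests largely on values at background.

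The change with the Siva hairpins was larger in LSZ4 for Thbs1 and larger in LSZ2 for Ctgf, but neither difference passed. The Thbs1 change was 2.75 in LSZ2 and 5.09 in LSZ4, a difference of -2.34 (SE 0.63, limma unadjusted p = 0.00225, adjusted p = 0.889); both LSZ4 shGFP arrays, at background, enter it. The Ctgf changes differed by 0.89 (SE 0.33, limma unadjusted p = 0.0161, adjusted p = 0.893). With limma 0 of the 6 genes and 0% of all genes passed (0 genes, with 526 at an unadjusted p under 0.05). With the 8 groups as separate means the Thbs1 difference was -2.14 and passed (limma adjusted p = 0.0200).

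Genes of the pathways around these proteins were counted beside the 4.29% of all genes called higher and 5.68% called lower. The lists were chosen with earlier results of these data known, so these counts are not independent evidence about the pathways. Of 20 targets of YAP, TAZ and TEAD other than Ctgf and Cyr61, 19 were tested in shSiva against control. Of these, 9 rose and 1 fell, with a median of 0.70 beside -0.12 for all genes. The number that rose ran from 6, with normexp background correction, to 11 over the alternatives other than single left-out arrays. Tgfb2, a TGF-beta ligand, rose by 3.25 (SE 0.36, limma adjusted p = 5.03e-05), with 3 of 7 control arrays well above background. Ankrd1, a nuclear ankyrin repeat protein of muscle and stressed cells, rose by 2.22 (SE 0.25, limma adjusted p = 7.20e-05). Gadd45a, a growth arrest gene that is also a p53 target, rose by 2.13 (SE 0.15, limma adjusted p = 1.31e-06). All 8 shSiva arrays stood above all 7 control arrays for Tgfb2 and Gadd45a. In the Hippo pathway and TEAD list, 1 of 16 rose, Lats2, a kinase of the pathway that is also on the target list, by 0.70 (SE 0.15, limma adjusted p = 0.00885). Vgll4, a TEAD cofactor, differed by 0.80 (limma adjusted p = 0.123) and Yap1 by -0.60 (limma adjusted p = 0.158).

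Targets of SRF and its cofactors, a further set that Cyr61 and Ctgf belong to, had 2 of 13 tested rise: Vcl, an actin-linking protein of focal adhesions, by 0.39 (limma adjusted p = 0.0258), and Cnn2, an actin-binding calponin, by 0.88 (limma adjusted p = 0.0472). Fhl2 differed by 0.32 (limma adjusted p = 0.192). Of 8 Wnt target genes tested, 1 rose, Rnf43, a ligase that removes Wnt receptors, by 0.70 (limma adjusted p = 0.0260). Tcf7 differed by 1.08 (limma adjusted p = 0.0832) and Apcdd1 by 0.38 (limma adjusted p = 0.208). Tcf7 had a mean of -2.77 in control arrays, -0.75 with shSiva1 and -2.64 with shSiva2. Lef1, Axin2 and Lgr5, named after their values were seen, were among 5 that did not pass the filter.

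Of 13 receptors tested, 1 fell, Itgb3, the integrin subunit that pairs with Itgav, by 0.75 (limma adjusted p = 0.0488). Notch1 differed by 0.46 (limma adjusted p = 0.105) and Lrp1, which takes up thrombospondin, by 0.86 (limma adjusted p = 0.123). Cd36, a thrombospondin receptor named after its values were seen, did not pass the filter. Of 11 other matricellular genes tested, 1 fell, Tnxb, a tenascin, by 1.14 (SE 0.29, limma adjusted p = 0.0206). Sparcl1 was well above background on 4 of 8 shSiva and 0 of 7 control arrays. As it passed the filter only through shSiva arrays, no fold or p is given for it. Fbln2 differed by 0.35 (limma adjusted p = 0.173). Comp, the remaining thrombospondin, differed by 0.48 (limma adjusted p = 0.242), and Wisp3, the remaining CCN gene, did not pass the filter.

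**Figure D3:**
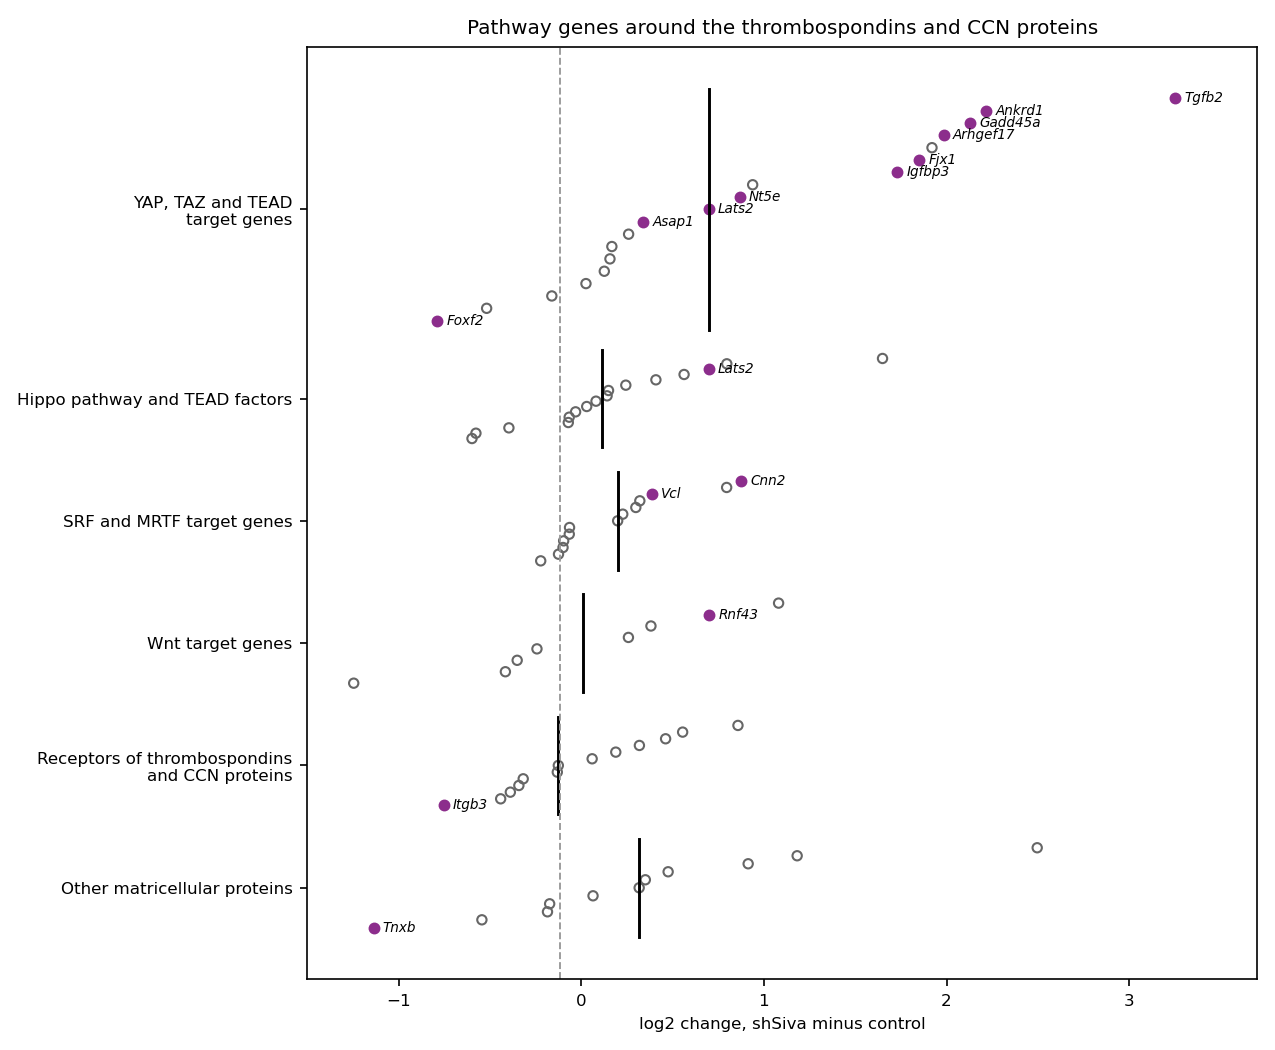
Log2 change between shSiva and control arrays (horizontal axis) of each tested gene in 6 pathway lists (vertical axis, genes ordered by change within a list); filled, named points have an adjusted p under 0.05, black lines are list medians and the dashed line is the median of all genes, -0.12. The list of YAP, TAZ and TEAD targets has 9 filled points to the right and 1 to the left, and each other list has at most 2. The lists were chosen with earlier results of these data known.

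In the comparison of the Siva hairpins, 3 of 11 other matricellular genes tested were lower with shSiva2 and 0 were higher. Of all 22908 genes, 2280 were called lower and 2541 higher, together 21.0%, so the count is not read as a result about these genes. Named after their values were seen, Smoc2, a SPARC-related protein, had a mean of 1.33 with shSiva1 and -5.00 with shSiva2, where 1 of 4 arrays measured it (limma adjusted p = 8.31e-07), and Tgfbi, an integrin ligand, had 3.18 and -0.16 (limma adjusted p = 8.63e-07). The other, Fbln1, differed by -2.51 (limma adjusted p = 0.000499). Tead2, a TEAD factor also named after its values were seen, was 3.52 with shSiva1 and -0.87 with shSiva2 (limma adjusted p = 1.40e-08). Among 19 YAP, TAZ and TEAD targets, 4 were higher and 2 lower with shSiva2, beside the same background. Of the cell type markers tested, 1 of 3 fibroblast, 2 of 4 lung, 2 of 8 epithelial and 0 of 5 endothelial and blood markers were called. With 21.0% of all genes called, these counts are not read as a result about cell types. Col1a1, a fibroblast marker, had a mean of -3.43 with shSiva1 and -6.56 with shSiva2, where 0 of 4 arrays measured it. As it passed the filter through the 4 shSiva1 arrays and 1 control array, its p is not given. The fibroblast markers Col1a2 and Col3a1 differed by -0.09 and -0.19 and were not called. Sftpb, a surfactant protein, was higher, with a mean of -2.44 with shSiva2 and -6.39 with shSiva1, where 0 of 4 arrays measured it (limma adjusted p = 0.000143). The lung marker Scgb1a1 was higher by 0.78 (limma adjusted p = 0.0229), and the epithelial markers Cdh1 and Krt7 by 1.01 (limma adjusted p = 0.00273) and 0.79 (limma adjusted p = 0.0254). The summed linear level of the 10 fibroblast markers was 0.193 to 0.328 with shSiva1, 0.143 to 0.203 with shSiva2 and 0.128 to 0.283 in control arrays, in multiples of the 75th percentile, with 7 of the 10 well above background on no array of shSiva1; the part of these markers in the Wisp1 and Wisp2 differences was not tested. Of the fibroblast, lung, and endothelial and blood marker lists, only Pecam1 of the last changed between shSiva and control, by -0.66 (limma adjusted p = 0.0173), and of 8 epithelial markers Epcam rose by 0.68 (limma adjusted p = 0.00988).

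The genes whose values followed each member most closely over the 15 arrays differed between members. Among 13676 other named genes, Pearson's r with Thbs1 was highest for Fam114a1 (0.983) and Gsap (0.981), and with Cyr61 for Tmem202 (0.978) and Mreg (0.967). For Wisp1 it was highest for Irgm2 (0.978) and Chd5 (0.973). For Wisp2 it was Plat (0.979), which encodes tissue plasminogen activator, and Fcgbp (0.976). For Ctgf it was Srgap2 (0.924) and Cyb5d1 (0.899), and for Thbs3 Cfb (0.881) and Tppp (0.874). These correlations describe arrays that share groups and slides. Tmem202 was measured on 8 of the 15 arrays, Irgm2 on 6, Chd5 and Tppp on 5 and Fcgbp on 4. Wisp1 and Wisp2 themselves were measured on 6 and 4, so correlations with these genes rest partly on values at background. Plat, measured on all 15 arrays, had a mean of 1.24 with shSiva1, -1.81 with shSiva2 and -2.12 in control arrays, so its pattern did not rest on values at background.

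RefSeq promoter sequences (GRCm38.p6) were matched for 4 of the 9 genes, Cyr61, Thbs2, Thbs3 and Thbs4. The 250 bases before the start are printed for Cyr61, which differed between the arms without overlap, and for Thbs3, which overlapped; capitals mark matches on either strand to 4 motifs, none of which overlapped another. The core bound by TEAD factors was searched as GGAATG. The TATA box was searched as TATAAA. The AP-1 site was searched as TGANTCA. The CArG box bound by SRF was searched by its usual consensus.
Cyr61, minus strand, chr3:145649986-145650235: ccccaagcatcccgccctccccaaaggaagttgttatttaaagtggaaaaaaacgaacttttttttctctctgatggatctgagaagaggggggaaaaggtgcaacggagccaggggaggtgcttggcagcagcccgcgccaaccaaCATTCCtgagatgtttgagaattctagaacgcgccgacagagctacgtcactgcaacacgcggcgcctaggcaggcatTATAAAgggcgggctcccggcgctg
Thbs3, plus strand, chr3:89214930-89215179: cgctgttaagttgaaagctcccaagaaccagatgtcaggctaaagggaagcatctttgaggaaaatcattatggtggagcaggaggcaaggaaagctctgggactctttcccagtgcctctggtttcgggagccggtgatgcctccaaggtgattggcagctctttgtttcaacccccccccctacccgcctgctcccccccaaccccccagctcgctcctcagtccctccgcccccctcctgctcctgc
The Cyr61 window held 1 TEAD match, 103 bases before the start and on the opposite strand, and 1 TATA match 25 bases before it. Thbs3 held none of the 4 motifs. Of the promoters not printed, that of Thbs4, which was at background on every array, held 2 TEAD matches, and that of Thbs2, also at background, held 1 TATA match. Of 32536 promoters of the same length, 12.6% held the TEAD letters, 12.3% the TATA letters, 6.73% an AP-1 and 1.48% a CArG match. A match is a description of letters and not a binding site.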

How the data were processed

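The scanner output gives spot intensity, which the authors obtained with version 10.7.3.1 of Feature Extraction, per the file headers, as background-subtracted and detrended processed signal; 200 ng of RNA was labelled with Cy3, per the labels' protocols. The deposited value table holds log2 values, found here to be the processed signal less the 75th percentile of its array, centred per probe; it served as an alternative. For the main values, spots without an outlier flag were averaged by probe, taken to log2 and reduced by the 75th percentile. A probe had to be well above background on 4 or more arrays and could be missing on 3 at most; a gene took its brightest probe. Symbols of 26582 of 55681 probes were updated through the accession. Fits used limma (3.58.1) and data.table (1.17.8) in R (4.3.3), with p-values adjusted by Benjamini-Hochberg over 22908 genes and a threshold of 0.05. Line and arm were terms for the pooled and line comparisons, line and 4 hairpins for hairpins, and means of line and arm for the difference between lines. Fits were tested on simulated data. The numbers after shGFP were read as replicates. The members and lists were chosen with earlier results of these data known. Genes named are the members, up to 3 of each list with the smallest p in shSiva against control, and the 2 most correlated with each member; exceptions are said. Replicate numbers were not taken to pair the arrays. Alternatives covered scaling, background correction, filters, blocks, probe choice and left-out arrays.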

Additional observations from a re-analysis of the deposited data

Results flagged for a closer look

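Of 72 sets of 4 to 8 arrays examined, 7 held an array whose gap to the nearest other, as a share of the range, was above Dixon's 95% critical value, and chance gives about 1 in 20. Ctgf in LSZ4 with shSiva1, replicate 2, was 5.33, with 4.98 the nearest of the LSZ4 shSiva arrays. Thbs1 in LSZ4 with shSiva2, replicate 2, was 0.18, with 1.04 the nearest shSiva2 array. Nov in LSZ4 with shSiva1, replicate 2, was -3.76, the only array where it was well above background. The others were values at background: Thbs2 at -5.91 in LSZ4 with shSiva1, replicate 1, far from the others among shSiva and among shSiva1 arrays, Nov at -8.20 in LSZ2 with shSiva1, replicate 1, and Nov at -6.36 in LSZ4 with shSiva2, replicate 1.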

How the results depend on the processing

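Of the members, Wisp1 and Wisp2 kept the call and direction for shSiva2 against shSiva1 in all 24 settings that gave a value, Cyr61 in 10 of 25, and Thbs3 lost the call between lines with normexp, the random block and without both LSZ4 shGFP arrays; the causes were not tested. No called difference changed sign. Uncalled ones did, among them Wisp1 between lines, at 0.21 and, with normexp, -0.34, and Ctgf between control hairpins, at -0.02 and, without both LSZ4 shGFP arrays, 0.51. Quantile normalization moved the median of all genes from -0.23 to -0.07 between lines and from -0.23 to -0.09 between control hairpins, normexp moved it to -0.34 between lines and from 0.14 to 0.01 between Siva hairpins, and for the difference between lines it moved from 0.15 to 0.04 and 0.01. The pooled count, 2285 genes, was 831 with normexp background correction (465 higher, 366 lower, against 983 and 1302), 957 with groups of line and hairpin as a random block, 4538 with 8 means, 4690 against shGFP alone and, chosen after seeing the data, 1347 without both LSZ4 shGFP arrays; the line count, 4968, was 2054, 1051 and 11062 in the first 3 of these, 1025 without the LSZ4 shGFP arrays and 8742 with no filter. The count for shLacZ against shGFP was 3 with quantile normalization, 4 with the replicate block, and 0 with normexp, no filter or well above background on all 15 arrays. The difference between lines gave 4 genes with quantile normalization and 79 with 8 means. Members called between lines numbered 2 with quantile normalization, 3 with no filter and with 8 means, and 0 with normexp, the random block or without the LSZ4 shGFP arrays. Between Siva hairpins 1 was called with all 15 arrays required, where Wisp1 and Wisp2 are not tested, and 5 with 8 means. With 8 means 1 member differed between lines in its change. With normexp the pooled differences were 8.01-fold for Thbs1, against 16.1-fold, and, on the log2 scale, 1.69 for Wisp1 and 1.64 for Wisp2, against 4.03 and 3.85. Leaving out each array gave 1545 (without LSZ4 shLacZ replicate 2) to 3786 (without LSZ4 shLacZ replicate 1) pooled calls, 3741 to 5517 between Siva hairpins, 0 to 5 between control hairpins, 1319 (without LSZ2 shLacZ replicate 1) to 12038 (without LSZ4 shLacZ replicate 1) between lines and 0 to 3 for the difference between lines; members called were 2 to 3, 0 to 0, 0 to 2 and 0 to 0 in the last 4, and YAP, TAZ and TEAD targets that rose were 7 to 9. Over 21 pairs of 7 groups, differences between replicates 1 and 2 correlated at -0.21 to 0.73, 14 of them over 0.1 (median 0.23). As not every pair was over 0.1 and the labels name no shared source, the numbers were not taken to pair the arrays. The replicate block gave 2906 pooled calls, 6742 between Siva hairpins and 6287 between lines, and changed no other call among these results. Signal over background limits Thbs2, Thbs4, Nov, Wisp1 and Wisp2, measured on 6 arrays or fewer.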
